A study of Mus musculus with 672 samples.

Results

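The step from all-lymphoid progenitors (ALPs) to B cell-biased lymphoid progenitors (BLPs) was followed in the bone marrow of control mice by comparing 72 single BLP cells with 168 single ALP cells, which together make 240 of the 672 cells of the series. The cells were taken by their gate and genotype alone, and 183 of the 240 passed the quality limits, 69 of them BLPs and 114 ALPs. BLPs were sorted as Ly6D+ cells that were negative for lineage markers and B220, positive for Sca-1, c-Kit and IL-7Ra, and Flt3hi; ALPs had the same gate but were Ly6D-. Both came from the femurs and tibiae of the same 2 animals, named mouse 18218 and mouse 18220. These were 7-week-old C57BL6/129Ola mice carrying homozygous floxed alleles of Mbd3 (Mbd3 flox/flox), a subunit of the NuRD chromatin remodelling complex; no Cre is named for them. Lymphoid-primed multipotent progenitors (LMPPs, IL-7Ra-), the stage before ALPs, were sorted from the same 2 control mice. BLPs and ALPs of 2 Mbd3 del/del mice of the same strain and age, called null mice here, serve for comparison; which cells carry the deletion, and what drove it, is not stated for them. Each cell was sequenced on its own by a full-length, plate-based protocol without molecular identifiers.

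ALPs and BLPs are neighbouring stages of lymphoid development in the marrow. ALPs can still give rise to B, T, natural killer and dendritic cells, whereas cells that display Ly6D are biased to the B lineage. In the textbook account, the E proteins and IL-7 receptor signalling allow expression of the transcription factor EBF1, which together with FOXO1 and later PAX5 turns on the genes of the pre-B cell receptor and opens the immunoglobulin loci to the RAG recombinase, while genes of other lineages are turned down.

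Promoters of this programme are shown because EBF1 and the E proteins are known to bind such regions, and because the RAG genes, which lie next to each other, gave different values across the step. The sequences are RefSeq's for GRCm38.p6 and cover the 250 bases before the annotated start, on the strand of the gene. Capitals mark the letters CAGGTG, an E box, or CCCNNGGG, the core of the EBF site, on either strand. None of the printed windows overlaps an exon of its gene in GENCODE release M21. The Rag1 window is chr2:101649533-101649782 (minus strand), the Rag2 window chr2:101624462-101624711 (plus strand), the Igll1 window chr16:16863986-16864235 (minus strand) and the Pax5 window chr4:44710695-44710944 (minus strand).
Rag1: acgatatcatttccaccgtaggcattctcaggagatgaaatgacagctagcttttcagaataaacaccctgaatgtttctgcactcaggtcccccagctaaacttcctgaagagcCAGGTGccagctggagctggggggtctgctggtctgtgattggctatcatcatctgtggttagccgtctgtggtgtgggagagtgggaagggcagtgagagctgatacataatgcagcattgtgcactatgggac
Rag2: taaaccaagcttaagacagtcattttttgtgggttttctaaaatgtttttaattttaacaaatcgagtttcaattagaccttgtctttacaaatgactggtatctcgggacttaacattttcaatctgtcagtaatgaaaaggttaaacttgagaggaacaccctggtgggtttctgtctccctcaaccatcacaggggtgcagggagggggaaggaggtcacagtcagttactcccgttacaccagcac
Igll1: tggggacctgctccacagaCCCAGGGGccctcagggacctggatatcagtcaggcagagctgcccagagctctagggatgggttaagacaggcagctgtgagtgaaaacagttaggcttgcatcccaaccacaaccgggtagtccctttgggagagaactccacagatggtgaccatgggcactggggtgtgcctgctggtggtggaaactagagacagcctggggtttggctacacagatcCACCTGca
Pax5: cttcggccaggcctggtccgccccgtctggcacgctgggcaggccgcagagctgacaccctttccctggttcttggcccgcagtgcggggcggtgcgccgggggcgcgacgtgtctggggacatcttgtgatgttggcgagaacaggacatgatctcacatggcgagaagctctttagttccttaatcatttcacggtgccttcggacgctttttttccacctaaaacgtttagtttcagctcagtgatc
The E box begins 135 bases before the start in Rag1 and 8 bases before it in Igll1, and the EBF core lies 231 bases before the start in Igll1. Neither set of letters is in the Rag2 or Pax5 window. Of 13 genes of the B programme, 12 had a RefSeq window. Of these, 6 held the E box, against 17.2% of 32851 windows of all genes, and 2 held the EBF core (Igll1 and Foxo1), against 11.8%. The E box windows were those of Rag1, Igll1, Vpreb1, Vpreb2, Cd79a and Blnk. Those of Vpreb1, Vpreb2, Cd79a and Blnk overlap an exon of their gene, as does the Foxo1 window. Vpreb1 and Vpreb2 carry the E box within the same stretch of sequence, so these windows are not independent. All marked sites are matches of letters and nothing was measured at them.

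Counts of the kept cells were summed per mouse and gate, which gave 81842869 and 108737030 gene counts in the BLP libraries of mice 18218 and 18220, and 122514230 and 72338775 in the ALP libraries. A typical kept cell had 8752 to 9249 detected genes as a BLP and 7356 to 8675 as an ALP (medians per library). In mouse 18220, 44 of the 84 ALP cells were left out, 43 of them for low counts, against 10 of 84 in mouse 18218, so the ALP library of mouse 18220 rests on 40 cells. All levels below are CPM of the summed library, scaled by TMM and not corrected for gene length, and the mouse is the replicate. In such a sum, more cells with a transcript and more transcript per cell cannot be told apart. Unless other libraries are named, values are given for mouse 18218 and then mouse 18220. No cell had the counts of another cell.

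Transcripts of the genes used for sorting were present in both gates, Ly6d included. Il7r, the IL-7 receptor chain, was at 782 and 909 CPM in BLPs and 622 and 874 CPM in ALPs, against 26.7 and 14.5 CPM in LMPPs. Flt3, the receptor of the early lymphoid growth factor FLT3 ligand, was at 885 and 817 CPM in BLPs and 979 and 1019 CPM in ALPs. Kit (115 and 89.7 CPM in BLPs, 61.9 and 137 CPM in ALPs) and Ly6a, which encodes Sca-1 (113 and 87.9 CPM in BLPs, 88.1 and 62.2 CPM in ALPs), overlapped between the gates. Ptprc encodes CD45, and these counts do not resolve the B220 form. Ly6d was at 2793 and 3749 CPM in BLPs and 40.1 and 133 CPM in ALPs, a difference that the sort itself sets. In the check of the targeted gene, Mbd3 was at 82.4 and 191 CPM in BLPs and 99.1 and 102 CPM in ALPs of the control mice, while no BLP or ALP library of the null mice exceeded 2.88 CPM. The LMPP libraries of the null mice were at 0.19 and 24.7 CPM. Markers of cells outside the gates were present to different degrees. Ms4a1 of mature B cells reached at most 0.41 CPM in any of the 4 libraries. The macrophage gene C1qa had no read in BLPs, while 1 ALP cell of mouse 18218 held 239 reads of C1qa and 139 of C1qb. Cd68, also of macrophages, was at 26.3 and 15.0 CPM in BLPs and 6.45 and 6.96 CPM in ALPs. The 12-gene list of mature B and plasma cell markers summed to 636 and 736 CPM in BLPs and 496 and 465 CPM in ALPs; most of it is Sdc1, Xbp1, Ighd and Mzb1. The 16-gene macrophage and stroma list summed to 300.0 and 254 CPM in BLPs and 216 and 215 CPM in ALPs. The part of these sums in the results was not tested.

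Across 19903 genes, a single gene, Ebf1, passed the test between BLPs and ALPs (0.00502% of those tested, higher in BLPs; none lower, 0%; edgeR quasi-likelihood test, Benjamini-Hochberg adjusted p below 0.05). At an unadjusted p below 0.05 there were 1493 genes (7.5%), 688 higher in BLPs (3.46%) and 805 lower (4.04%). Without a test, both BLP libraries lay wholly above or wholly below both ALP libraries for 36.7% of genes. In this fit 6 degrees of freedom were left and the typical biological coefficient of variation was 86.9%. DESeq2 called 595 genes on the same counts, 261 higher and 334 lower. Everything after Ebf1 is therefore given as values, mouse by mouse.

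Ebf1, the transcription factor that specifies the B lineage (chr11:44617317-45008091, mm10), was at 267 and 227 CPM in BLPs and 24.7 and 19.9 CPM in ALPs. The BLP libraries lay far above both ALP libraries and close to each other: the means were 247 ± 27.9 and 22.3 ± 3.36 CPM (SD, n = 2 mice each). Ebf1 rose by 3.47 ± 0.26 on the log2 scale in BLPs over ALPs (SE), an 11.1-fold difference (adjusted p = 0.0107 by edgeR). The change was alike in both mice, with log2 ratios of 3.38 and 3.45 (each CPM plus 1). Separated gates and likeness between mice are what the test selects for, so they add no further support to the call. Ebf1 also rose at the step before: it was at 1.01 and 0.72 CPM in LMPPs and was 4.69 ± 0.28 higher on the log2 scale in ALPs than in LMPPs (adjusted p = 0.000791 by edgeR). Most ALPs had an Ebf1 read before thinning (54 of 74 and 31 of 40, against all 34 and 35 BLPs), but at low levels. The cell with the most Ebf1 reads held 13.9% and 14.1% of them in BLPs, against 24.4% and 43.7% in ALPs. The median over cells with any Ebf1 read was 152 and 227 CPM in BLPs and 3.92 and 2.80 CPM in ALPs. With only the 4 libraries compared in the fit, the log2 difference was 3.46 and its adjusted p 0.497 by edgeR, with 2 residual degrees of freedom. With either mouse left out the call was also lost (log2 differences 3.44 to 3.52), as it was without the ALP library of mouse 18220 (3.33, adjusted p = 0.204 by edgeR).

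**Figure D1:**
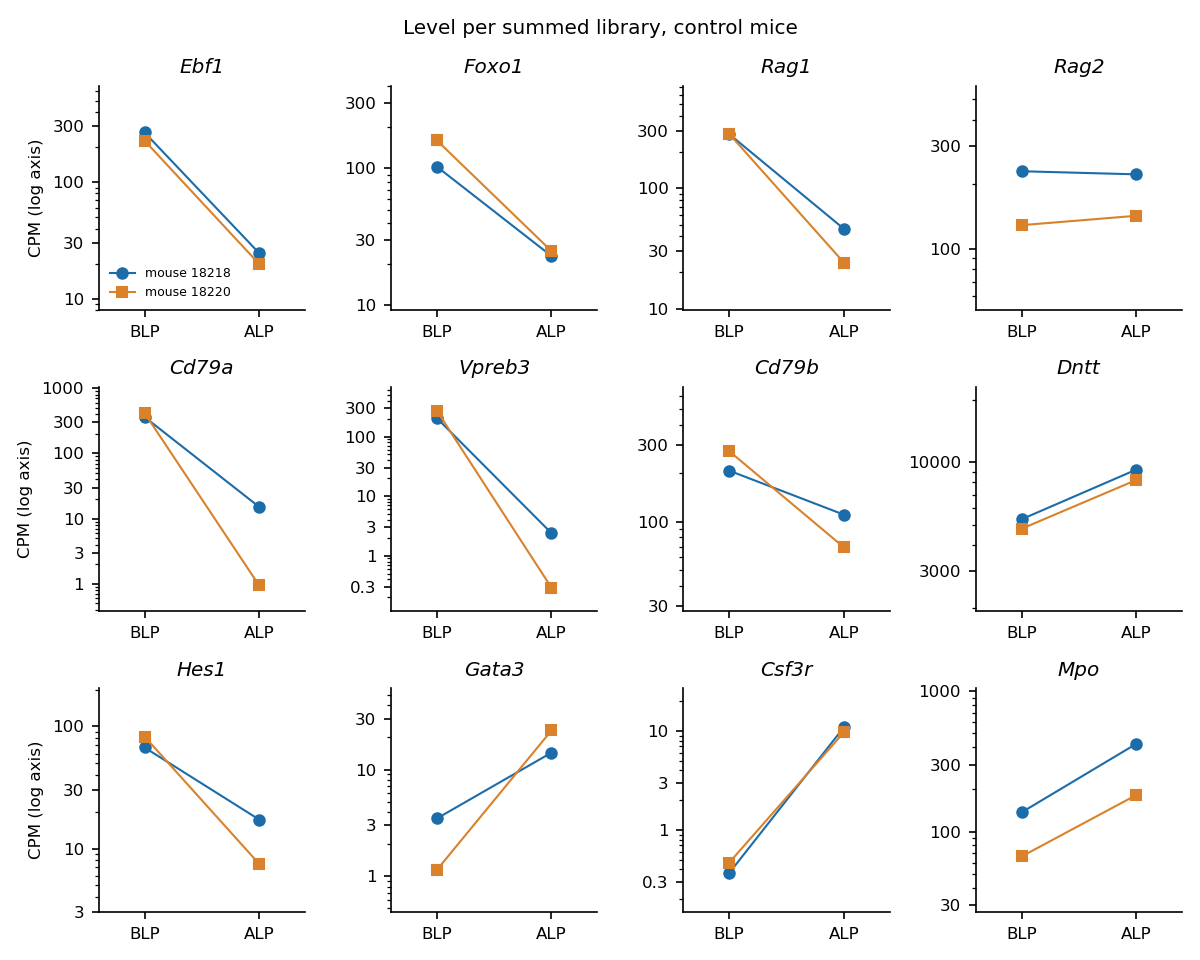
CPM (log axis) of 12 genes in the summed BLP and ALP libraries of control mice, with a line joining the libraries of 1 mouse. Ebf1 is at 267 and 227 CPM in BLPs and 24.7 and 19.9 CPM in ALPs, Rag1 is also higher in BLPs in both mice while Rag2 is level within each mouse, and Dntt, Gata3, Csf3r and Mpo are lower in BLPs.

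The partners and targets of EBF1 among transcription factors were also higher in BLPs, though none passed the test. Pax5, the factor of B-lineage commitment (chr4:44524757-44710487), was at 43.1 and 36.4 CPM in BLPs and 0.27 and 1.51 CPM in ALPs, a log2 difference of 5.50 ± 0.83 (adjusted p = 0.180 by edgeR). Foxo1, the forkhead factor that acts with EBF1 on Rag and Il7r (chr3:52268336-52353221), was at 103 and 160.4 CPM in BLPs and 22.8 and 24.8 CPM in ALPs. Pou2af1, the octamer coactivator OBF-1, was at 50.8 and 23.8 CPM in BLPs, while the ALP libraries held 8 and 5 reads of it in all. For each of these 3 genes both BLP libraries stood above both ALP libraries, as they did for 16.9% of all genes. All 3 were taken from their list for a small p, so their separation is partly a matter of choice. Single cells weighed on Pou2af1, with 56.6% and 53.1% of its BLP reads in 1 cell.

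Among the E proteins, the dimers that drive early B-cell genes, the differences were smaller. Tcf12, which encodes HEB, was at 136 and 119 CPM in BLPs and 58.2 and 49.1 CPM in ALPs (log2 difference 1.25 ± 0.26, adjusted p = 0.422 by edgeR). Tcf3, which encodes E2A, was at 170.2 and 207 CPM in BLPs and 132 and 166 CPM in ALPs. Tcf4, which encodes E2-2, was at 314 and 381 CPM in BLPs and 227 and 257 CPM in ALPs. All 3 E proteins were thus higher in BLPs in both mice, by a factor of 2.38 for Tcf12 in the fit. Of the Id inhibitors, Id2 was at 53.9 and 60.5 CPM in BLPs and 41.2 and 43.0 CPM in ALPs, while Id3 ran in opposite directions in the mice (0.11 and 11.7 CPM in BLPs, 6.00 and 9.45 CPM in ALPs). The list of E proteins and Id inhibitors had 6 of 7 genes tested, none called, and a median log2 difference of 0.48.

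Over the list of 30 B-lineage transcription factors, 25 were higher and 5 lower in BLPs, with a median log2 difference of 0.34 against -0.003 for all genes tested, and the count called is Ebf1 alone. The list held 7 genes higher and 1 lower at an unadjusted p below 0.05, against 3.46% and 4.04% of all genes. In 15 of the 30 both BLP libraries exceeded both ALP libraries, against 16.9% of all genes. Factors with reads in LMPPs were mixed in this. Tcf4, Bcl11a, Pou2f1 and Aff3 separated the gates, as did Tcf3 and Tcf12, whereas others overlapped. Ikzf1 was at 653 and 452 CPM in BLPs and 567 and 495 CPM in ALPs, and Spi1, which encodes PU.1, was at 199 and 171 CPM in BLPs and 167 and 186 CPM in ALPs. Mef2c stood at 1127 and 903 CPM in BLPs and 1092 and 933 CPM in ALPs. Aff3, a nuclear factor of lymphoid cells, differed little in size but tightly, with 326 and 346 CPM in BLPs and 188 and 194 CPM in ALPs (log2 difference 0.81 ± 0.21, adjusted p = 0.496 by edgeR).

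The recombination genes split. Rag1, the catalytic subunit of the V(D)J recombinase (chr2:101638282-101649501), was at 282 and 284 CPM in BLPs and 46.1 and 24.2 CPM in ALPs, a log2 difference of 3.01 ± 0.45 (adjusted p = 0.180 by edgeR). Rag2, its partner on the same chromosome, was at 229.9 and 129 CPM in BLPs and 222 and 142 CPM in ALPs, a log2 difference of -0.02 ± 0.42. The Rag1 libraries of the gates were far apart, while those of Rag2 differed more between mice than between gates. Dntt, the terminal transferase that adds untemplated bases at junctions, was at 5319 and 4789 CPM in BLPs and 9223 and 8218 CPM in ALPs (log2 difference -0.79 ± 0.26, adjusted p = 0.573 by edgeR). Xrcc6, which encodes the end-joining protein Ku70, was at 922 and 947 CPM in BLPs and 697 and 656 CPM in ALPs. Of 15 recombination and end-joining genes, 14 were tested: 4 were higher and 10 lower, none was called, and the median log2 difference was -0.05 (-0.31 without the ALP library of mouse 18220).

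The parts of the pre-B cell receptor and its signalling chain gave the highest median among the B-lineage lists. The surrogate light chain genes were near the floor in ALPs. Vpreb3 (chr10:75943057-75949657), which encodes a chaperone of the receptor, was at 204 and 271 CPM in BLPs and 2.39 and 0.29 CPM in ALPs (log2 difference 7.45 ± 1.21, adjusted p = 0.234 by edgeR). Vpreb1 was at 29.7 and 69.9 CPM in BLPs and 0.24 and 1.20 CPM in ALPs; in mouse 18220, 1 cell held 71.5% of its BLP reads and 1 cell 89.7% of its ALP reads. Vpreb2 was at 117 and 98.9 CPM in BLPs and 4.69 and 0.18 CPM in ALPs. Vpreb1 and Vpreb2 are near-identical copies, and how the counting divided reads between them is uncertain. Igll1, which encodes lambda5, its partner in the surrogate light chain, was at 13.4 and 269 CPM in BLPs and 0.70 and 0.35 CPM in ALPs. Its high value in mouse 18220 is nearly 1 cell, which held 98.9% of the reads.

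The signalling chains of the receptor were present in ALPs to different degrees. Cd79a, the Ig-alpha chain, was at 363 and 419 CPM in BLPs and 15.1 and 0.94 CPM in ALPs (log2 difference 5.60 ± 1.32, adjusted p = 0.476 by edgeR). Cd79b, the Ig-beta chain, was at 207 and 274 CPM in BLPs and 110.5 and 69.3 CPM in ALPs (log2 difference 1.42 ± 0.36, adjusted p = 0.496 by edgeR). Both chains of the heterodimer were higher in BLPs in both mice, and Cd79a had almost no reads in the ALPs of mouse 18220. The adaptor Blnk was at 874 and 720.4 CPM in BLPs and 478 and 640.1 CPM in ALPs, against 23.9 and 15.1 CPM in LMPPs, so ALPs already stood far above LMPPs. The Src-family kinase Blk was at 353 and 239 CPM in BLPs, 111 and 72.0 CPM in ALPs, and 0.77 and 0.45 CPM in LMPPs. Btk was level, at 125.5 and 168.5 CPM in BLPs and 156 and 158 CPM in ALPs. Cd24a, a surface protein of early B cells, was at 891 and 807 CPM in BLPs and 576 and 512 CPM in ALPs, a small difference of 0.64 ± 0.13 on the log2 scale (adjusted p = 0.422 by edgeR).

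Of the 25 genes of this list, 22 were higher and 3 lower in BLPs, and none was called. At an unadjusted p below 0.05 by edgeR, 9 were higher and 0 lower, against 3.46% and 4.04% of all genes. DESeq2 called 9, against 595 of 19903 over all genes. In 19 of the 25, both BLP libraries stood above both ALP libraries, against 16.9% of all genes. The median log2 difference was 1.36 in the fit, and 0.79 and 1.42 within mice 18218 and 18220 (CPM plus 1), against medians of -0.01 and 0.00 for all genes. Without the ALP library of mouse 18220 the fit gave 0.74.

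**Figure D2:**
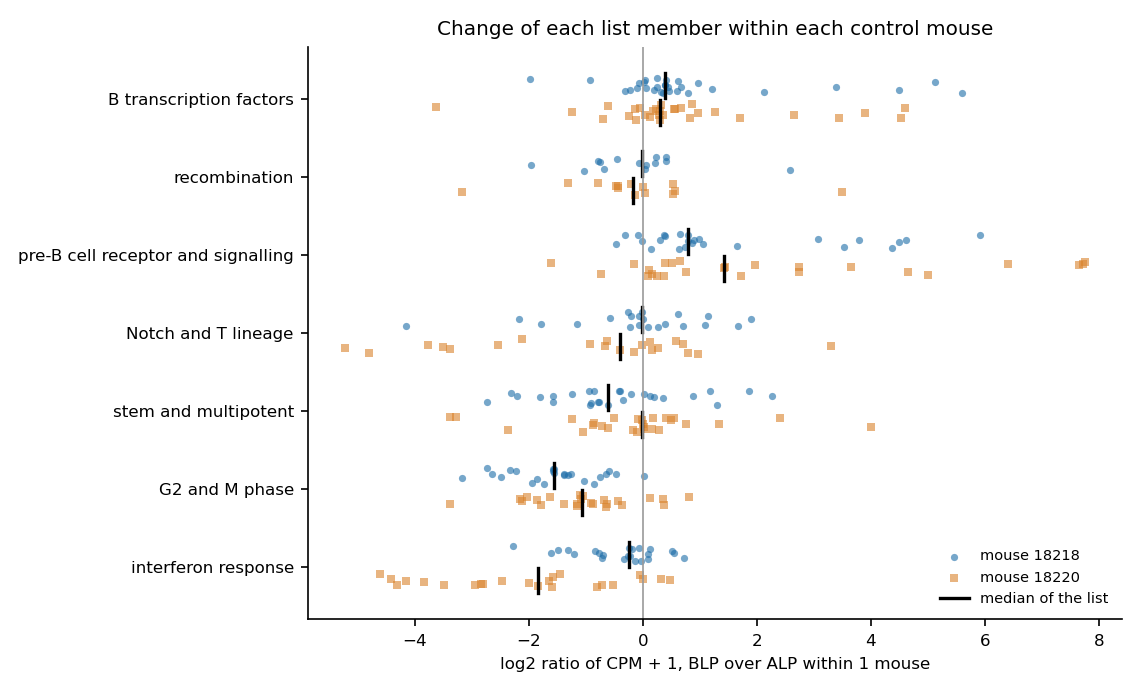
Each point is 1 gene of a list, placed by its log2 ratio of CPM plus 1, BLP over ALP, within mouse 18218 (circles, upper row) or mouse 18220 (squares, lower row); black bars are medians. The pre-B cell receptor list has medians of 0.79 and 1.42, the G2 and M phase list medians of -1.56 and -1.06, and the interferon list medians of -0.24 and -1.84, the last differing between the mice.

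To see how many cells carried each transcript, every kept cell was reduced at random to the same depth of 50000 gene counts and the share of cells with a read was counted. For 34 genes chosen for this, 18 had higher shares in both BLP libraries than in both ALP libraries, 5 had lower shares and 11 overlapped. The 18 include Ly6d, which the sort itself sets. The 5 include Ptprc, read in 33 of 34 and 34 of 35 BLPs and in 73 of 74 and 39 of 40 ALPs. Over all genes tested, the shares were higher without overlap in 11.2% and lower without overlap in 17%. With 2 mice against 2, the exact permutation test cannot give a two-sided p below 0.333, so the shares are a description. Of the sort genes, Kit was read in 52.9% and 40% of BLPs and 56.8% and 52.5% of ALPs. Ly6a was read in 47.1% and 31.4% of BLPs and 40.5% and 22.5% of ALPs, and Ly6d in 40.5% and 35% of ALPs. Ebf1 was read in 73.5% and 65.7% of BLPs and 32.4% and 20.0% of ALPs, against 4.26% and 6.38% of LMPPs, a gate in which it is near the floor. For a single library, the exact 95% binomial interval of these Ebf1 shares ran from 55.6% to 87.1% in the BLPs of mouse 18218, which covers counting error only. Pax5 was read in 32.4% and 25.7% of BLPs and 1.35% and 2.5% of ALPs, a cell in each ALP library. Before thinning, 26 of 34 and 24 of 35 BLPs and 19 of 74 and 15 of 40 ALPs had a Pax5 read. Cd79a was read in 73.5% and 65.7% of BLPs and 17.6% and 2.5% of ALPs.

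The light chain genes were found in part of the BLPs. Vpreb2 had a read in 58.8% and 48.6% of BLPs and in 10.8% of the ALPs of mouse 18218; of the 40 ALPs of mouse 18220 none had one, which allows a share of up to 7.5% at this depth. Before thinning, 6 of those 40 cells had a Vpreb2 read, 13 reads in all. Vpreb1 had a read in 29.4% and 17.1% of BLPs and 2.70% and 2.5% of ALPs, and Igll1 in 23.5% and 17.1% of BLPs and 8.11% and 2.5% of ALPs. The Igll1 shares in ALPs lie close to those in LMPPs, 8.51% and 4.26%. Rag1 was read in 88.2% and 62.9% of BLPs and 40.5% and 30.0% of ALPs, while Rag2 was read in 73.5% and 45.7% of BLPs and 75.7% and 55.0% of ALPs. Read together per cell, both Rag genes were found in 22 of 34 and 11 of 35 BLPs and in 24 of 74 and 6 of 40 ALPs. ALPs with Rag2 alone numbered 32 of 74 and 16 of 40, against 3 of 34 and 5 of 35 BLPs.

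**Figure D3:**
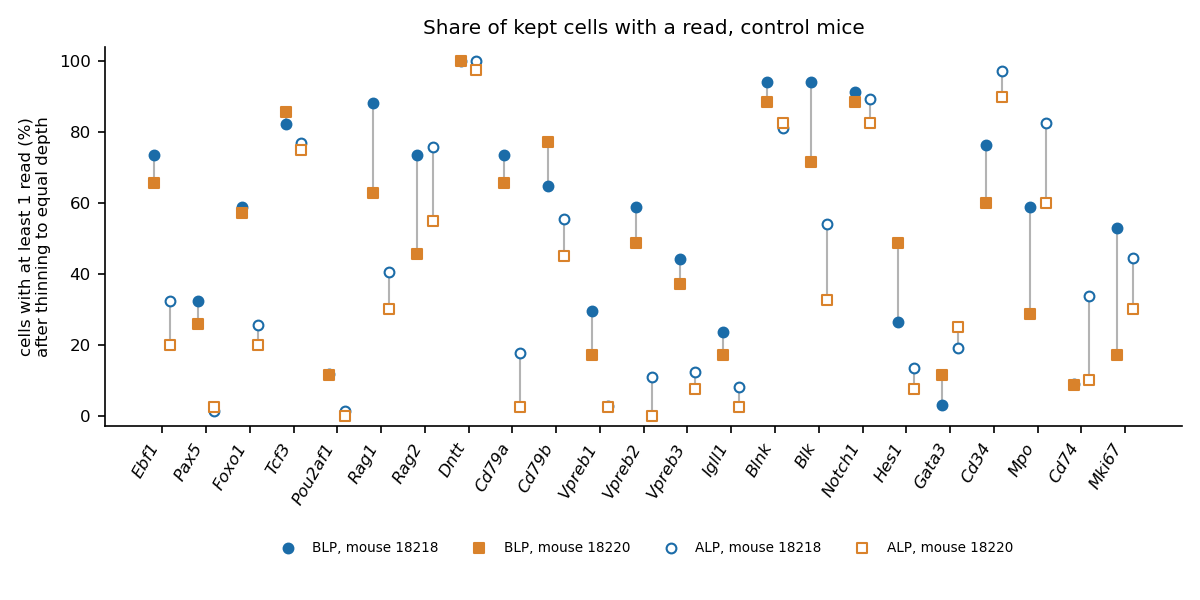
Share of kept cells with at least 1 read of each gene after thinning to equal depth, in per cent, for BLPs (filled) and ALPs (open) of mouse 18218 (circles) and mouse 18220 (squares). Ebf1, Pax5, Foxo1, Cd79a and the Vpreb genes separate the gates in both mice, Rag2 and Mki67 do not, and Cd34, Mpo and Gata3 are lower in BLPs.

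Cells of the same gate carried the programme unevenly. Of a panel of 12 B genes (Ebf1, Pax5, Foxo1, Rag1, Rag2, Igll1, Vpreb1, Vpreb3, Cd79a, Cd79b, Blnk and Pou2af1), the average thinned cell held 6.68 and 5.71 as a BLP, 3.54 and 2.70 as an ALP, and 1.70 and 1.11 as an LMPP. BLPs ranged from 1 to 11 panel genes in mouse 18218 and from 1 to 12 in mouse 18220. ALPs ranged from 0 to 7 and from 0 to 5. At least 6 panel genes were read in 70.6% and 54.3% of BLPs, against 12.2% of the ALPs of mouse 18218 and 0 of the 40 ALPs of mouse 18220. At the other end, 2 or fewer were read in 2.94% and 14.3% of BLPs and 28.4% and 42.5% of ALPs. The gates overlapped: some BLPs held no more panel genes than the average ALP. Ebf1 and Pax5 were read together in 9 of 34 and 9 of 35 BLPs and in 1 of 74 and 1 of 40 ALPs. Pax5 without Ebf1 was seen in 2 of 34 and 0 of 35 BLPs, and Ebf1 without Pax5 in 16 and 14 BLPs. Ebf1 and Cd79a were read together in 21 and 20 BLPs and in 8 and 0 ALPs.

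**Figure D4:**
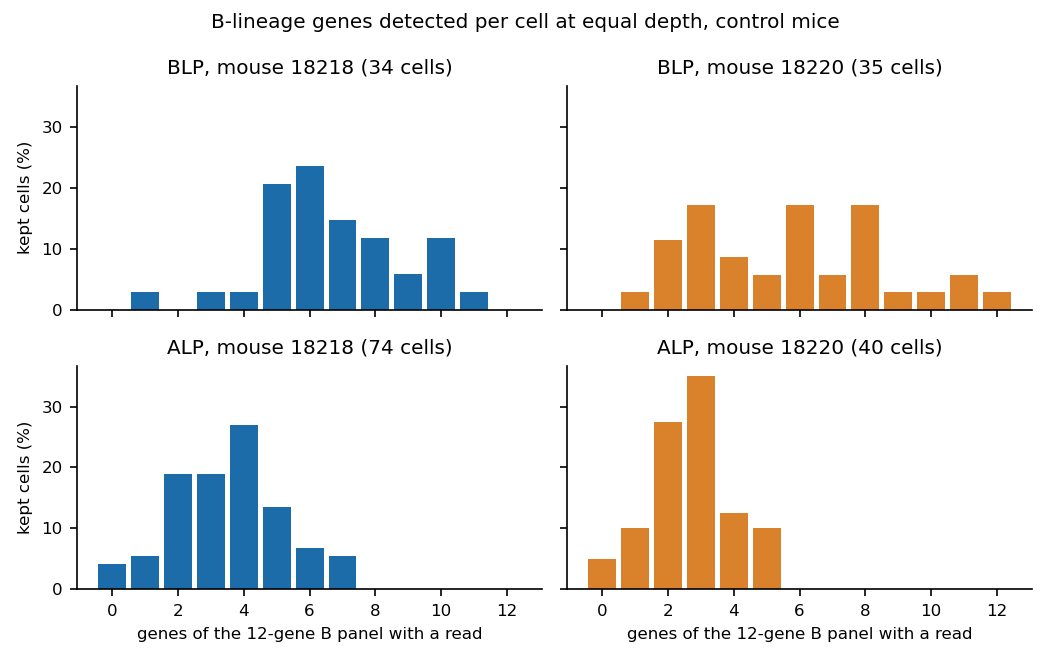
Share of kept cells (per cent) by the number of genes of a 12-gene B panel with a read at equal depth, with BLPs above ALPs and 1 column per mouse. The BLP averages are 6.68 and 5.71 genes and the ALP averages 3.54 and 2.70, with BLP cells spread from 1 gene upwards.

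IL-7 signalling, which keeps early B cells alive and dividing, gave small and mixed values. Of 21 genes, 13 were higher and 8 lower in BLPs, none was called and the median log2 difference was 0.10 (0.36 without the ALP library of mouse 18220). Ccnd3, the D-type cyclin that early B cells need to expand, was at 389 and 595 CPM in BLPs and 202 and 195 CPM in ALPs (log2 difference 1.31 ± 0.42, adjusted p = 0.569 by edgeR). Cish, a feedback target of STAT5, was at 70.6 and 87.8 CPM in BLPs and 46.2 and 27.2 CPM in ALPs, and Pim1, another STAT5 target, at 35.5 and 47.3 CPM in BLPs and 21.7 and 19.6 CPM in ALPs. These 3 were above both ALP libraries in both BLP libraries, whereas Socs3 and Bcl2l1 ran in opposite directions in the 2 mice. Over the list, 5 of 21 genes had both BLP libraries above both ALP libraries, against 16.9% of all genes. Both lay below for 3 of 21, Myc among them, against 19.8% of all genes.

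Genes of the other lymphoid fates differed in both directions. Hes1, a target of Notch, was at 67.3 and 82.7 CPM in BLPs and 17.3 and 7.49 CPM in ALPs (log2 difference 2.60 ± 0.67, adjusted p = 0.496 by edgeR), and was read in 26.5% and 48.6% of BLPs and 13.5% and 7.5% of ALPs. Nrarp, another Notch target, was low in both gates, at 2.39 and 0.97 CPM in BLPs and 0.06 and 1.20 CPM in ALPs. Gata3, which T and innate lymphoid cells need, was at 3.48 and 1.15 CPM in BLPs and 14.4 and 23.2 CPM in ALPs. Lat, an adaptor of T-cell receptor signalling, was at 57.9 and 52.7 CPM in BLPs and 130 and 84.1 CPM in ALPs. Both Gata3 and Lat were lower in BLPs in both mice. The cell with the most Gata3 reads held 41.8% and 53.8% of them in ALPs, and 60.2% and 10% in BLPs. Over cells with any Gata3 read before thinning, the median was 1.35 and 1.16 CPM in BLPs and 2.41 and 2.14 CPM in ALPs. At equal depth, Gata3 was read in 2.94% and 11.4% of BLPs and 18.9% and 25% of ALPs. Tcf7, which marks entry into the T lineage, was at 0.99 and 0.03 CPM in BLPs and 34.5 and 27.8 CPM in ALPs. Its reads came from few cells, since only 2.70% and 7.5% of ALPs had one at equal depth, against 2.94% and 0% of BLPs. The 24-gene Notch and T lineage list had 21 genes tested, 8 higher and 13 lower, none called, with a median log2 difference of -0.18 (0.19 without the ALP library of mouse 18220). The 18-gene natural killer and innate lymphoid list had 12 tested, 3 higher and 9 lower, none called, and a median of -1.28. That median turns on the ALP library of mouse 18220 and is 0.19 without it; in that library Zbtb16, the innate lymphoid factor PLZF, had 2771 reads in 4 cells.

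Myeloid and stem-cell genes carried over from the earlier stages were lower in BLPs in part. Csf3r, the G-CSF receptor, was at 0.37 and 0.47 CPM in BLPs and 10.9 and 9.70 CPM in ALPs, after 182 and 112 CPM in LMPPs (log2 difference -4.62 ± 0.76, adjusted p = 0.236 by edgeR). Mpo, the granule enzyme myeloperoxidase, was at 137 and 66.6 CPM in BLPs and 421 and 182 CPM in ALPs, and was read in 58.8% and 28.6% of BLPs and 82.4% and 60.0% of ALPs. Csf2rb, the common beta chain of the GM-CSF, IL-3 and IL-5 receptors, had the opposite order, at 44.5 and 82.6 CPM in BLPs and 27.1 and 31.6 CPM in ALPs. Of 23 myeloid genes, 20 were tested, 10 higher and 10 lower, with none called and a median of -0.08 (0.83 without the ALP library of mouse 18220). Cd34, the progenitor surface marker, was at 356 and 302 CPM in BLPs and 839 and 626 CPM in ALPs, after 1552 and 1685 CPM in LMPPs. Lmo2, a partner of stem-cell transcription factors, was at 91.7 and 80.5 CPM in BLPs and 141 and 132 CPM in ALPs. Ifitm1 ran against Cd34 and Lmo2, at 151 and 96.1 CPM in BLPs and 30.6 and 17.3 CPM in ALPs, after 479 and 475 CPM in LMPPs. Fgd5 was also higher, at 3.04 and 15.7 CPM in BLPs and 0.11 and 0.04 CPM in ALPs. A single cell held 98.4% and 99.4% of the Fgd5 reads in BLPs. The 28-gene stem and multipotent list had 27 tested, 11 higher and 16 lower, none called, with a median of -0.46 in the fit and of -0.62 and -0.01 within the 2 mice. Cpa3, a protease of mast cells, had 2 and 4 reads in the BLP libraries and 1843 and 2856 in the ALP libraries. The ALP reads came from 8 and 5 cells. The 18-gene erythroid, megakaryocyte and mast list had 15 tested, 3 higher and 12 lower, none called, with a median of -1.75 (-1.10 without the ALP library of mouse 18220), at summed levels of 77.2 and 108 CPM in BLPs and 191 and 171 CPM in ALPs. Within the mice its medians were only -0.27 and -0.29 (CPM plus 1), and the fit without mouse 18218 gave -0.42.

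The dendritic and MHC class II list had medians that differed between the mice, while Siglech, Irf8 and Cd74 each kept their direction in both. Siglech, a receptor of plasmacytoid dendritic cells, was at 464 and 802 CPM in BLPs, 124 and 202 CPM in ALPs, and 0.82 and 4.88 CPM in LMPPs. The log2 difference of BLPs over ALPs was 1.96 ± 0.89 (adjusted p = 0.660 by edgeR), and 1 cell held 43.2% and 38.9% of its BLP reads. Irf8, a factor of both dendritic and B cells, overlapped between the gates at 1020 and 1599 CPM in BLPs and 776 and 1315 CPM in ALPs. Cd74, the MHC class II invariant chain, was lower, at 5.42 and 9.39 CPM in BLPs and 26.4 and 18.7 CPM in ALPs. Of the 22 dendritic and MHC class II genes, 19 were tested, 15 higher and 4 lower, none called, with a median of 0.34 in the fit (0.55 without the ALP library of mouse 18220) and of -0.07 and 0.57 within the mice.

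The cell cycle lists differed from each other. All 24 genes of the G2 and M phase list were lower in BLPs in the fit, at a median log2 difference of -1.31, with none called. At an unadjusted p below 0.05, 6 were lower, against 4.04% of all genes. In 13 of the 24, both BLP libraries lay below both ALP libraries, against 19.8% of all genes. Ckap2l, a spindle protein, was at 30.0 and 13.2 CPM in BLPs and 75.8 and 57.2 CPM in ALPs. Tpx2, which activates Aurora A, was at 31.3 and 38.1 CPM in BLPs and 124 and 59.4 CPM in ALPs. Ccnb2, a mitotic cyclin, was at 40.6 and 9.95 CPM in BLPs and 232 and 47.6 CPM in ALPs. The sums of the list were 1450.1 and 847 CPM in BLPs and 3585 and 1491 CPM in ALPs, so the ALPs of mouse 18218 stood highest and the ALPs of mouse 18220 close to the BLPs of mouse 18218. Mki67, the best known of the set, overlapped in level (256 and 79.8 CPM in BLPs, 253 and 178 CPM in ALPs) and in share of cells (52.9% and 17.1% of BLPs, 44.6% and 30.0% of ALPs). The 24 S phase genes did not follow: 15 were higher and 9 lower, none was called or reached an unadjusted p below 0.05, and their median was 0.16 (0.07 without the ALP library of mouse 18220, and 0.01 with thinned cells). With cells thinned to equal counts, 22 of the 24 G2 and M phase genes were lower and the median was -0.82.

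Interferon-response genes were lower in BLPs, mostly in 1 mouse. Oas1a, an antiviral sensor of double-stranded RNA, was at 15.7 and 9.23 CPM in BLPs and 40.5 and 72.4 CPM in ALPs (log2 difference -2.18 ± 0.52, adjusted p = 0.476 by edgeR). Rsad2, which encodes the antiviral enzyme viperin, was at 0.32 and 1.27 CPM in BLPs and 5.38 and 47.4 CPM in ALPs. Oasl2 was at 28.7 and 14.4 CPM in BLPs and 49.4 and 84.4 CPM in ALPs. For all 3 the ALP library of mouse 18220 stood highest. Single cells weighed on this. The cell with the most reads held 36.6% of those of Oas1a in that library, 45.6% for Rsad2 and 70.2% for Oasl2. Before thinning, only 5 of its 40 cells had an Rsad2 read. In the BLPs of mouse 18220, 1 cell held 96.3% of the Oasl2 reads. Of 23 genes, 2 were higher and 21 lower, with none called and a median of -1.39. At an unadjusted p below 0.05, 9 were lower, against 4.04% of all genes. Within the mice the medians were -0.24 and -1.84, and without the ALP library of mouse 18220 the fit gave -0.37.

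Outside the lists, the genes given here were taken by smallest p among genes whose libraries did not overlap between the gates. Closeness of the mice therefore follows from the choice and is not a result. Ly6e, of the same family as Ly6d, was at 4201 and 4642 CPM in BLPs and 1739 and 1627 CPM in ALPs (log2 difference 1.39 ± 0.17, adjusted p = 0.146 by edgeR). Slc25a1, the mitochondrial citrate carrier, was at 1054 and 840.2 CPM in BLPs and 313 and 367 CPM in ALPs. Colq, known for anchoring acetylcholinesterase, was at 120.4 and 148 CPM in BLPs and 39.9 and 32.0 CPM in ALPs, and was nearly absent from LMPPs at 0.26 and 0.22 CPM. Itpr1, an intracellular calcium channel, was at 232 and 265 CPM in BLPs and 97.4 and 93.6 CPM in ALPs. Each was at least 1.38 higher on the log2 scale in the fit. That the gates separated was a condition of their choice, met in this direction by 16.9% of all genes. In the other direction stood Dapp1, an adaptor that binds phosphoinositides, at 99.5 and 97.9 CPM in BLPs, 239 and 250.1 CPM in ALPs and 730.1 and 696 CPM in LMPPs (log2 difference of BLPs over ALPs -1.31 ± 0.17, adjusted p = 0.146 by edgeR). Samsn1, an adaptor that dampens B-cell activation, was at 211 and 193 CPM in BLPs and 333 and 391 CPM in ALPs. Atp5a1, the alpha subunit of ATP synthase, was at 676 and 829 CPM in BLPs and 1165 and 1195 CPM in ALPs. Slc25a12, the mitochondrial aspartate-glutamate carrier, was at 96.9 and 103 CPM in BLPs and 224 and 236 CPM in ALPs.

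The same step was set beside that of the null mice, mice 18217 and 18219, whose values come in this order. No gene passed the interaction test of the BLP over ALP change between the genotypes (0 of 19903, 0%; 1269 genes at an unadjusted p below 0.05, 6.38%; edgeR; DESeq2 gave 352 and limma-voom 1). Within the null mice no gene was called either (1274 at an unadjusted p below 0.05, 6.4%, by edgeR). For Ebf1 the log2 difference of BLPs over ALPs was 3.47 in control mice and 0.62 in null mice, and the difference between the changes was 2.85 ± 0.34 (adjusted p = 0.441 by edgeR). The BLPs were at similar levels, with 267 and 227 CPM in control mice and 278 and 291 CPM in null mice, while the ALPs were at 24.7 and 19.9 CPM in control mice and 154 and 217 CPM in null mice. Rag1 showed the same layout, with log2 differences of 3.01 in control and 0.37 in null mice (difference 2.64 ± 0.60, adjusted p = 0.776 by edgeR). Its ALPs were at 46.1 and 24.2 CPM in control mice and 176 and 243 CPM in null mice. Pax5 was at 0.27 and 1.51 CPM in control ALPs and 30.9 and 28.0 CPM in null ALPs, and Vpreb2 at 4.69 and 0.18 CPM in control ALPs and 21.2 and 25.5 CPM in null ALPs. At equal depth 32.4% and 20.0% of control ALPs and 64.6% and 71.4% of null ALPs had an Ebf1 read. The average ALP held 3.54 and 2.70 panel genes in control mice and 4.65 and 5.19 in null mice, while BLPs held 6.68 and 5.71 in control mice and 6.28 and 6.43 in null mice.

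The G2 and M phase list had a median BLP over ALP difference of -1.31 in control mice and 1.27 in null mice. Tpx2, for one, was at 31.3 and 38.1 CPM in control BLPs and 124 and 59.4 CPM in control ALPs, against 100.2 and 92.9 CPM in null BLPs and 59.3 and 30.6 CPM in null ALPs. The change in control minus the change in null mice was -2.50 ± 0.66 (adjusted p = 0.776 by edgeR). The pre-B cell receptor list had medians of 1.36 in control and 1.02 in null mice.

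**Figure D5:**
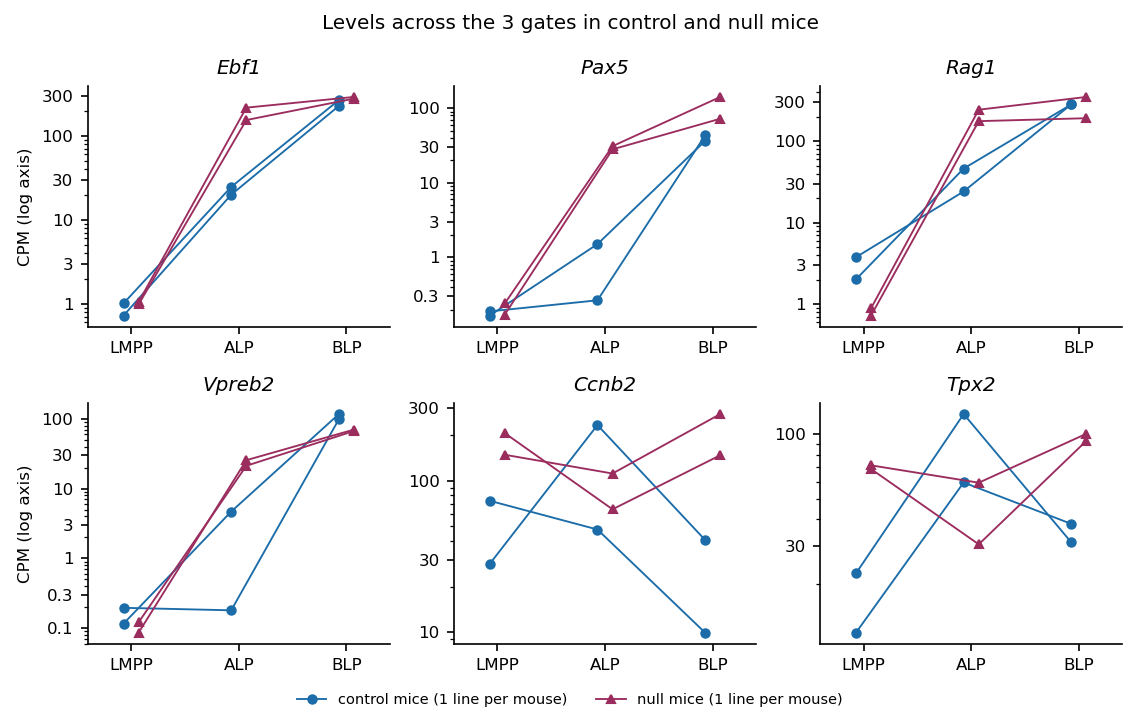
CPM (log axis) of 6 genes across LMPP, ALP and BLP in 2 control mice (circles) and 2 null mice (triangles), 1 line per mouse. Ebf1, Pax5, Rag1 and Vpreb2 are lower in control than in null ALPs while Ccnb2 and Tpx2 are lower in BLPs than ALPs in both control mice and higher in BLPs than ALPs in both null mice.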

How the data were processed

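The deposited file holds whole-number read counts per gene and cell, with no normalization by the authors. Per the submitters' processing notes, GSNAP, HTSeq 0.5.3p3 and mm10 were used. Which annotation release and strand setting served for counting was not given in the sources used here. Over all 672 cells, genes took 43.2% of the entries, spike-ins 6.13%, reads outside features 11.6%, ambiguous reads 6.08% and unaligned reads 33%; entries naming no gene entered neither library sizes nor tests. Symbols and coordinates (GRCm38) come from GENCODE release M21, which named all but 849 of 46078 gene IDs.

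Cells were kept with at least 50000 counts and 1000 genes from the nucleus, no more than 20% of counts from mitochondrial genes, and spike-ins at 50% or less. Their counts were summed per mouse and gate into 12 libraries. Genes were filtered with filterByExpr, scaled by TMM and tested with edgeR 4.0.16 (quasi-likelihood, Benjamini-Hochberg adjusted over all 19903 genes, threshold 0.05; R 4.3.3) in 1 fit of 6 groups, checked on simulated data. Two-sided tests were used throughout. CPM were computed from the counts. Ratios within a mouse used CPM plus 1. Shares of cells used 1 random thinning (seed 11), with exact binomial 95% intervals, and the floor for a count of 0 was 3 counts. Reads without molecular identifiers are not independent molecules, so intervals and floors cover counting error only.

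The BLPs and ALPs of a mouse come from the same animal, so the numbers pair the libraries. Deviations from the group means correlated at r = 0.0694 within a mouse. The fit without the pairing is reported and the paired fit is an alternative. DESeq2 1.42.0, limma-voom (limma 3.58.1), RLE scaling, no filter, all cells, thinned cells, fewer libraries and each mouse left out were also tried. With 2 mice a group, p-values rest on few animals.

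Named genes were the gate genes, up to 10 per direction past the threshold or with the smallest p (averaging 20 CPM or more, and without overlap between the gates), up to 6 members of each B-lineage list and up to 3 of each other list by p, and Mbd3. Other genes that the text names, such as Rag2, Cd79a, Cd79b, Cd34 and Mki67, were chosen after their values were seen. A gene that the rule selects is withheld and not reported here. The cells and the 22 gene lists were chosen with earlier results of these data known.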

Additional observations from a re-analysis of the deposited data

How the results depend on the processing

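The number of genes called between BLPs and ALPs was 1 and depended on the method. DESeq2 called 595, the fit with no filter on low counts 34, cells thinned to equal counts 9 and limma-voom 2 (Ebf1 and Ly6e). Only the libraries compared gave 0 (1369 genes at an unadjusted p below 0.05, edgeR). Leaving out either mouse gave 0 to 0 (798 to 1559 genes at an unadjusted p below 0.05, edgeR), and leaving out the ALP library of mouse 18220, a choice made after seeing the data, gave 0 (1052). The cause of these differences was not tested. The mouse as a replicate block, RLE scaling and all cells each gave 1. For the difference between control and null mice, where 0 genes were called, DESeq2 gave 352 and no filter and limma-voom 1 each; the other fits, the replicate block included, gave 0.

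Ebf1 kept its direction in every fit. Its log2 difference was 3.46 with only the libraries compared, 3.44 to 3.52 with a mouse left out and 3.33 without the ALP library of mouse 18220, and in these 4 fits it was not called (adjusted p 0.204 to 1 by edgeR). In the paired fit it was 3.47 (adjusted p = 0.0275 by edgeR), and over the remaining alternatives the adjusted p ran from 1.70e-34 (DESeq2) to 0.0264 (limma-voom). Of 93 genes named by the rule and reported, 88 kept their direction under all alternatives and 5 did not. With a mouse left out, the log2 difference ran from -0.60 to 0.90 for Kit, -0.79 to 1.70 for Socs3, -3.82 to 0.53 for Hbb-bt, -0.20 to 1.35 for Cdt1 and -0.26 to 0.91 for Mbd3. Hbb-bt was 0.06 without the ALP library of mouse 18220. The genes whose shares of cells did not overlap numbered 23, against 23 at 10 or more reads and 21 at 1 or more reads in unthinned cells. The differences in share themselves changed by more than the spread between mice for 21 of the 34 genes at 1 or more unthinned reads and for 8 at 10 or more. The difference in B panel genes per cell was 3.08, against 3.65 at 10 or more reads. Shares and panel counts with a mouse left out were not run, since they leave 1 library on each side.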

Other observations

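The lists not described above gave no call in the comparison of BLPs with ALPs. The gate list had 5 of 6 genes higher, while over all genes tested 9781 of 19903 were higher. Among the 5, Ly6d is set by the sort and Kit differed by 0.04 on the log2 scale. Only Ly6d had both BLP libraries above both ALP libraries. Immediate early and heat shock genes were more often higher than lower in BLPs, with median log2 ratios of 0.77 and 0.17 within the mice. Fos, an immediate early gene, was at 189 and 1406 CPM in BLPs and 94.2 and 807 CPM in ALPs, and Jun at 126 and 404 CPM in BLPs and 35.7 and 316 CPM in ALPs, so that mouse 18220 was higher in both gates. Within each mouse BLPs were higher for both genes. The heat shock cochaperone Dnajb1 was at 238 and 319.7 CPM in BLPs and 122 and 162 CPM in ALPs, and Jund at 27.2 and 28.3 CPM in BLPs and 14.0 and 10.0 CPM in ALPs; both separated the gates. Of the 20 genes of that list 13 were higher and 7 lower, with a median log2 difference of 0.40 (1.62 without the ALP library of mouse 18220). Only 3 of the 20 had both BLP libraries above both ALP libraries, against 16.9% of all genes. Both lay below for 1 of the 20, against 19.8% of all genes.

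Of 18 p53 target and apoptosis genes, 10 were higher and 8 lower (median 0.28, and 0.01 and 0.11 within the mice). Phlda3, a p53 target, was at 72.7 and 90.6 CPM in BLPs and 47.1 and 43.0 CPM in ALPs, and Zmat3, another, was at 0.06 and 0.11 CPM in BLPs and 4.39 and 7.78 CPM in ALPs, with 67.6% and 59.3% of the ALP reads in 1 cell. Of 17 glycolysis genes, 4 were higher and 13 lower (median -0.08). Without the ALP library of mouse 18220, 7 were higher and 10 lower (median -0.14). Gpi1, an early enzyme of the pathway, was at 198 and 192 CPM in BLPs and 321 and 231 CPM in ALPs. Tpi1, triosephosphate isomerase, was at 282 and 189 CPM in BLPs and 388 and 368 CPM in ALPs. The kinase Pdk1, which holds back pyruvate dehydrogenase, had the opposite order, at 197 and 159 CPM in BLPs and 124 and 109 CPM in ALPs.

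Of 15 NuRD genes, 12 were higher and 3 lower (median 0.20). The within-mouse medians were -0.12 and 0.42; without mouse 18220, 7 were higher and 8 lower (median -0.11), and with thinned cells 6 of 14 were higher (median -0.04). Rbbp7, a histone-binding subunit, was at 217 and 227 CPM in BLPs and 336 and 275 CPM in ALPs. Mbd2, the alternative to MBD3 in the complex, was at 45.1 and 78.0 CPM in BLPs and 33.5 and 27.5 CPM in ALPs. Of 20 adhesion and homing genes, 18 were tested, 8 higher and 10 lower (median -0.22, and 0.00 without the ALP library of mouse 18220). The integrin chain Itga4 was at 299.8 and 243 CPM in BLPs and 334 and 401 CPM in ALPs. Of the markers of other marrow cells, 6 of 9 tested genes of the mature B and plasma cell list were higher (median 0.80, and 0.52 without the ALP library of mouse 18220), and 5 of 9 of the macrophage and stroma list (median 0.01, and -0.28 without the ALP library of mouse 18220). The part of these markers in the results was not tested.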
